A study of Mus musculus with 3 samples.

Results

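Venus+ CD138hi cells, plasma cells that carry an Il10 reporter signal, were sorted from the bone marrow and from the spleen of IL-10 Venus mice, and the gene signals of both populations were compared. The comparison uses 2 of the 3 arrays of the study, 1 array per organ, and every probe with a gene symbol. These probes stood for 16390 genes, of which 11354 were detected in both organs and could be given a ratio. The third array, of B220+ cells from the spleen, was read as the background level of splenic B cells and enters no ratio.

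The genotype was the same for all 3 populations, the IL-10 Venus reporter mouse, whose cells fluoresce through the protein Venus where Il10 is expressed, and the cells were used freshly isolated, with no treatment named. CD138 (syndecan-1, encoded by Sdc1) is a surface protein of plasma cells, and B220 is the form of CD45 (encoded by Ptprc) on B cells. The study as a whole concerns the production of IL-10 by CD138hi cells in relation to Blimp-1 and to class switching. The sources used here do not give the age, sex and number of the mice or the purity of the sorts, and the sort on Venus chose cells with Il10 expression in both organs. Each population was 1 RNA sample on 1 array, so that no difference below has a replicate check, and the report holds no test and no p-value.

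Plasma cells are the antibody-secreting end stage of B cells. The transcription factors Blimp-1, IRF4 and XBP1 silence the B cell programme, with Pax5 at its centre, and enlarge the endoplasmic reticulum (ER) and secretory apparatus that antibody production needs. Newly formed plasma cells of the spleen can still divide, and some leave for the bone marrow, where the chemokine CXCL12 and its receptor CXCR4 hold them and the cytokine APRIL, read by the receptor BCMA (Tnfrsf17), supports long survival.

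A normalized signal here is the array intensity after subtraction of the blank level, scaled so that the median detected probe reads 25, and it compares arrays for 1 probe, never different probes. Of 23473 probes, 15857 (67.6%) were detected in bone marrow, 17239 (73.4%) in spleen and 16917 (72.1%) in B220+ cells, and the lowest detected signals were 2.4, 1.7 and 1.3. Below, "bone marrow" and "spleen" stand for the Venus+ CD138hi cells of that organ. The relative log2 ratio is the log2 of the bone marrow signal over the spleen signal minus -0.17, the median of that value over all genes detected in both organs. The value after ± is the spot error, which combines the spread of the blank spots and of repeated positive control spots on both arrays, and it covers neither animals nor sorts. "Higher" and "lower" mean at least 2-fold in bone marrow against spleen after this centring, and "between" means under 2-fold. Calls were also read with normexp background correction, whose offset of 50 draws ratios toward 0, most of all for dim genes. A gene dim in both organs could therefore hardly keep a 2-fold call there, whatever its ratio.

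Bone marrow and spleen Venus+ CD138hi cells had most genes within 2-fold of each other. Genes lower in bone marrow were mostly highest in B220+ cells, and genes higher in bone marrow were mostly lowest there. Of the 11354 genes, 820 (7.22%) were higher in bone marrow and 1239 (10.9%) were lower, together 18.1%, and 9295 lay between. Across genes the log2 signals of the organs correlated with a Pearson r of 0.93, a value over genes, which are not independent replicates. Among the 820 higher genes the B220+ array had the lowest of the 3 signals for 741 (90.4%). Among the 1239 lower genes it had the highest for 980 (79.1%). These shares were not counted over all genes. Of all 11354 genes, 4373 fell in the order B220+, spleen, bone marrow, and 3694 rose in that order. The shares are therefore not shown to be particular to the called genes, which were chosen on the bone marrow and spleen signals. Markers of granulocytes were higher in bone marrow too (5 of 8, with values further on). The median spot error was 0.14, and 761 of the higher and 1208 of the lower genes differed by more than 2 spot errors. For most genes a 2-fold call lies past 2 such errors already, so these counts add no support to the calls. Detected probes of the same gene spread over a median of 0.63 in log2 ratio. A further 1068 genes were detected in spleen alone, 242 of them (1.92% of the genes detected in at least 1 organ) with a bound of at least 2-fold. The count in bone marrow alone was 173, 103 (0.818%) with such a bound. Without the centring, on the scale the authors set, 491 genes were higher and 1722 lower, so that higher genes made up 22.2% of the calls instead of 39.8%.

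**Figure D1:**
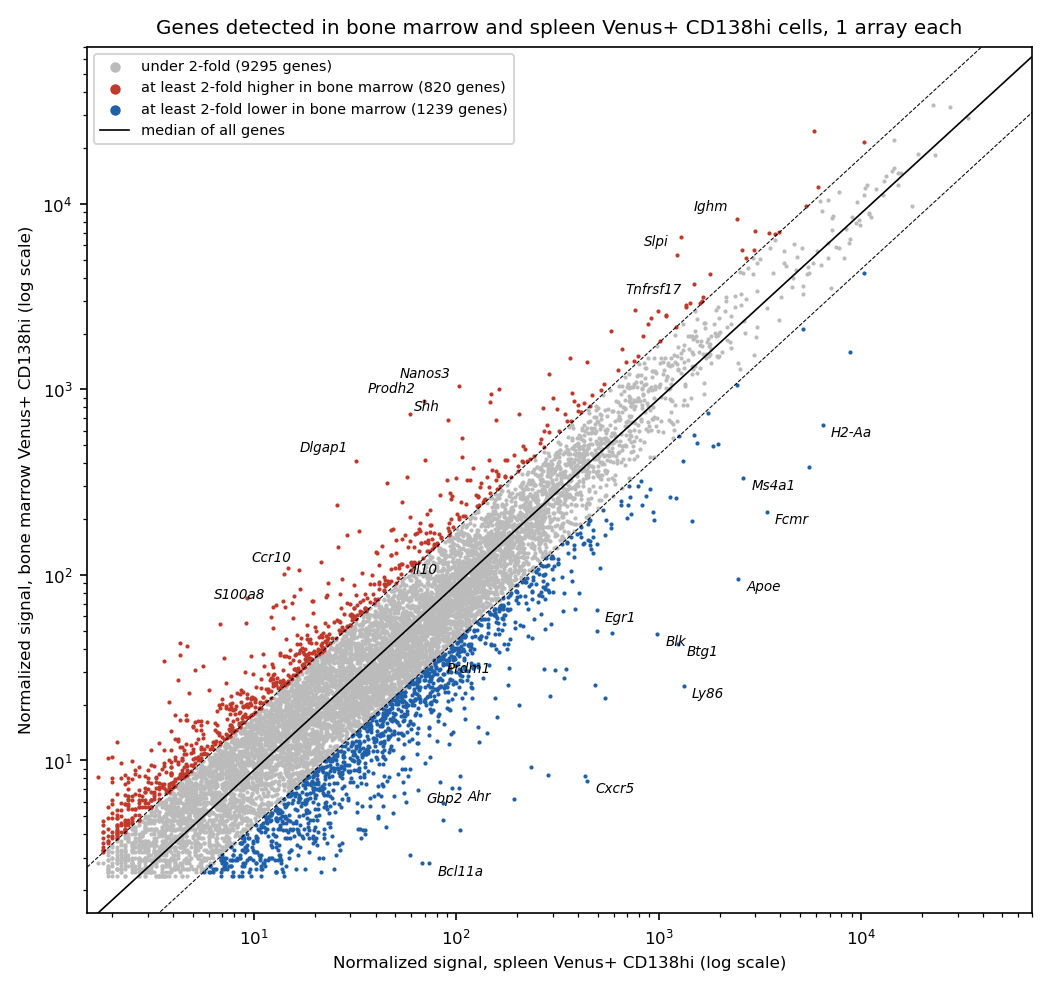
Normalized signal of each of 11354 genes in bone marrow (y axis) against spleen (x axis) Venus+ CD138hi cells, 1 array each, both axes logarithmic. The solid line is the median of all genes and the dashed lines are 2-fold above and below it. The B cell genes Cxcr5, Ly86 and Btg1 lie farthest below the line, and Dlgap1, Prodh2 and Nanos3 lie farthest above it among the labelled genes.

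Among the 12 genes highest in bone marrow, of those with a signal of at least 50 in either organ, were several best known from other tissues. Dlgap1, a scaffold protein of synapses, read 413 in bone marrow, 31.9 in spleen and 3.4 in B220+ cells, a relative log2 ratio of 3.87 ± 0.12. A second detected probe of Dlgap1 lay between, at 0.86. Prodh2, a mitochondrial enzyme of hydroxyproline breakdown, read 863 in bone marrow, 69.5 in spleen and 25.1 in B220+ cells, a ratio of 3.81 ± 0.11. Nanos3, an RNA-binding protein of germ cells, read 1037 in bone marrow, 104 in spleen and 29.3 in B220+ cells, at 3.50 ± 0.11. Colq, the collagen tail of acetylcholinesterase, was at 3.37 ± 0.12, and Shh, the secreted ligand sonic hedgehog, was at 3.09 ± 0.11 with 687 in bone marrow and 91.1 in spleen, undetected in B220+ cells. All of these were lowest in B220+ cells, intermediate in spleen and highest in bone marrow. The other genes of this group included Znrf3 (3.02), which encodes a ubiquitin ligase that removes Wnt receptors, Pgam2 (2.96), a muscle form of a glycolytic enzyme, and Hic2 (2.84), a transcriptional repressor.

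Of the 12 genes lowest in bone marrow, at the same minimum signal, 5 were in the list of mature B cell genes. Cxcr5, the chemokine receptor that draws B cells into follicles, read 7.8 in bone marrow, 445 in spleen and 829.5 in B220+ cells, a relative log2 ratio of -5.66 ± 0.24 or 50.6-fold lower. Cd72, an inhibitory receptor of B cells, was at -5.55 ± 0.24 with 8.2 in bone marrow, 434 in spleen and 919 in B220+ cells. Ly86, which encodes MD-1, the partner of CD180 on B cells, was at -5.55 ± 0.13 with 25.3 in bone marrow, 1332 in spleen and 1498 in B220+ cells. For Ly86 the spleen signal stood near that of B220+ cells, and for Cxcr5 and Cd72 it lay clearly below. In all 3 genes the bone marrow signal lay far below both. Btg1, an antiproliferative factor abundant in resting lymphocytes, was at -4.70 ± 0.12 (42.7 in bone marrow, 1250.1 in spleen and 7146 in B220+ cells), and Bcl11a, a transcription factor of early B cells, at -4.54 ± 0.62 (2.8 in bone marrow, 73.5 in spleen and 819 in B220+ cells). Cd2, an adhesion molecule of lymphocytes, was at -4.91 ± 0.23, and Apoe, the lipid carrier apolipoprotein E, was at -4.52 ± 0.11 with 95.6 in bone marrow, 2472 in spleen and 479 in B220+ cells, so that Apoe alone of the genes named in this paragraph was higher in spleen Venus+ than in B220+ cells.

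Among genes detected in spleen alone, the highest bounds belonged to Adm, S1pr1 and Samd9l. Adm, which encodes the peptide hormone adrenomedullin, read 623 in spleen and 44.9 in B220+ cells, undetected in bone marrow, and was at least 230.3-fold lower in bone marrow. Samd9l, an interferon-induced antiviral factor, read 145 in spleen and 1609.9 in B220+ cells, undetected in bone marrow, at least 53.5-fold lower. Dek, a chromatin protein (82.5 in spleen and 850.4 in B220+ cells, undetected in bone marrow), and Sorl1, a sorting receptor (68.9 in spleen and 833 in B220+ cells, undetected in bone marrow), were at least 30.5-fold and 25.5-fold lower. In the other direction Ighe, the constant region of IgE, read 73.3 in bone marrow and was undetected in spleen and B220+ cells, at least 48.6-fold higher in bone marrow. The next highest bounds in that direction were those of the granulocyte genes S100a9 and Mpo, described with the markers of other cells.

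The genes that defined the sort and the plasma cell programme were detected in both organs and mostly lay within 2-fold, as did most genes. Il10, on which the reporter reads, had signals of 91.3 in bone marrow, 88.8 in spleen and 5.9 in B220+ cells, a relative log2 ratio of 0.21 ± 0.11. Sdc1 read 219.5 in bone marrow, 128 in spleen and 2.5 in B220+ cells (0.95 ± 0.11), just under 2-fold. Ptprc, which encodes all forms of CD45, read 301 in bone marrow, 398 in spleen and 1967 in B220+ cells (-0.23 ± 0.11). The 32 measured genes of the plasma cell programme were all detected in both organs. Of these, 4 (12.5%) were higher, 1 was lower and 27 lay between, against 7.22% higher, 10.9% lower and 81.9% between among all genes. The median was 0.35 against 0 for all genes. In 20 of the 32 the signal was lowest in B220+ cells and highest in bone marrow, an order that 3694 of all 11354 genes had.

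Prdm1, which encodes Blimp-1, was the 1 lower gene of the programme. Its signals were 34.4 in bone marrow, 81.5 in spleen and 8.7 in B220+ cells, a relative log2 ratio of -1.07 ± 0.12, and it was under 2-fold in 3 of the alternative processings (-0.65 with normexp background correction, -0.97 with quantile normalization and -0.97 among genes with a signal of at least 25 in either organ). Irf4, the partner of Blimp-1 in plasma cell formation, read 688 in bone marrow, 1128 in spleen and 321 in B220+ cells (-0.54 ± 0.11), and Xbp1, the driver of ER expansion, read 8404 in bone marrow, 7174 in spleen and 355 in B220+ cells (0.40 ± 0.11). Zbtb20, a transcription factor of long-lived plasma cells, read 269 in bone marrow, 548 in spleen and 165 in B220+ cells (-0.85 ± 0.11), and Pou2af1, a coactivator of immunoglobulin genes, 675 in bone marrow, 1232 in spleen and 1111 in B220+ cells (-0.70 ± 0.11). A second detected probe of Zbtb20 was past 2-fold lower, at -1.28. Of these 5 regulators, only Xbp1 lay above the median of all genes.

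The 4 higher genes of the programme were Slpi, Chst1, Tnfrsf17 and Pycr1. Slpi, a secreted inhibitor of leukocyte proteases, read 5323 in bone marrow, 1238 in spleen and 77.2 in B220+ cells, 4.85-fold higher (2.28 ± 0.11). Tnfrsf17 (BCMA) read 2936 in bone marrow and 1435 in spleen, undetected in B220+ cells, 2.31-fold higher (1.20 ± 0.11). Chst1, a sulphotransferase that acts on carbohydrates, read 2490.3 in bone marrow, 1087 in spleen and 3.5 in B220+ cells (1.37 ± 0.11), and Pycr1, an enzyme of proline synthesis, read 998 in bone marrow, 522 in spleen and 4.8 in B220+ cells (1.11 ± 0.11). Slpi and Chst1 kept the call with normexp correction and Tnfrsf17 and Pycr1 did not, while Chst1 turned to -0.93 with the local background subtracted. Members between included Mzb1, an ER cofactor of antibody secretion (0.13 ± 0.11), Cd28, a costimulatory receptor of plasma cells (0.03 ± 0.11), Slamf7 (0.72 ± 0.11), a surface receptor of plasma cells, and Tent5c (0.55 ± 0.11), a poly(A) polymerase that stabilises secretory transcripts.

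**Figure D2:**
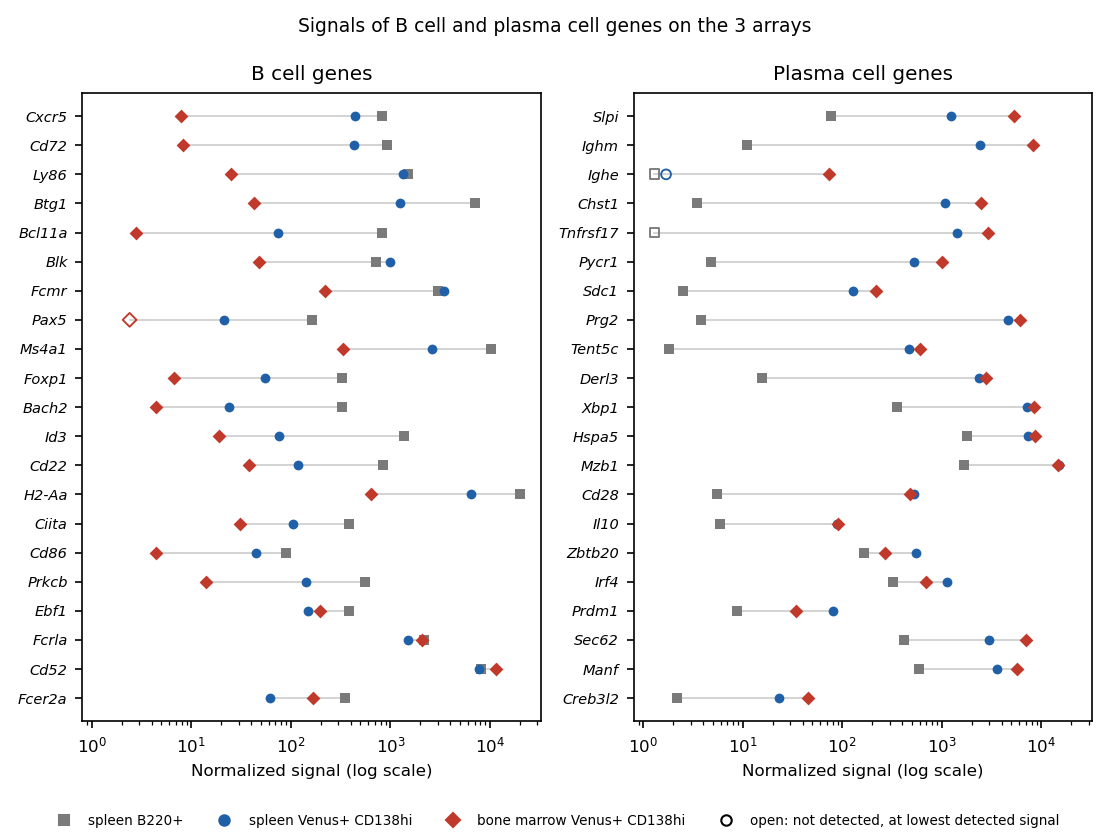
Normalized signals (x axis, logarithmic) of named B cell genes and plasma cell genes on the 3 arrays, with 1 symbol per array and open symbols for genes not detected, drawn at the lowest detected signal of that array. In the B cell genes from Cxcr5 to Prkcb the bone marrow symbol lies left of the spleen symbol, and in most plasma cell genes both Venus+ symbols lie close together and right of the B220+ symbol.

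Immunoglobulin genes were represented by few named probes. Of 5 detected in both organs, 1 was higher and 1 lower (20.0% each, against 7.22% and 10.9% of all genes). Ighm, the constant region of IgM, read 8236 in bone marrow, 2433 in spleen and 11.0 in B220+ cells, a relative log2 ratio of 1.93 ± 0.11 or 3.82-fold higher in bone marrow. B220+ cells of the spleen include IgM+ B cells, and the sources used here do not give the part of the transcript it reads. A probe named IglV1, for a lambda light chain variable segment, read 28948 in bone marrow, 33922 in spleen and 6229.5 in B220+ cells (-0.06 ± 0.11). Ighe was detected in bone marrow alone. Fcmr, the receptor for secreted IgM on B cells, was the 1 lower gene of this list, 13.8-fold (-3.79 ± 0.11), with 219 in bone marrow, 3418 in spleen and 3012 in B220+ cells. Pigr, which carries polymeric immunoglobulin across epithelia, read 97.4 in bone marrow, 97.6 in spleen and 41.4 in B220+ cells (0.17 ± 0.11). The surrogate light chain genes were near the detection limit (Vpreb1, 3.7 in spleen and 3.3 in B220+ cells, undetected in bone marrow) or near the median of all genes (Vpreb3, -0.08 ± 0.11).

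The B cell programme was the group with the lowest median of all 23 programme lists. Of 37 measured genes of mature B cell identity, 32 were detected in both organs, of which 18 (56.3%, against 10.9% of all genes) were lower, 1 was higher and 13 lay between, with a median relative log2 ratio of -1.41. Another 3 genes (Pax5, Ccr7 and Cpm) were detected in spleen alone and 2 (Bcl6 and Cr2) in neither organ. Of all 12595 genes detected in at least 1 organ, 1068 were detected in spleen alone. In 22 of the 32 the signal fell in the order B220+, spleen, bone marrow, against 4373 of all 11354 genes. In bulk RNA, fewer cells of a type and less RNA per cell cannot be told apart.

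Among the transcription factors of B cells, Pax5, which maintains B cell identity, read 21.3 in spleen and 164 in B220+ cells, undetected in bone marrow, at least 7.88-fold lower. Bach2, a repressor that holds back plasma cell formation, read 4.4 in bone marrow, 23.8 in spleen and 324 in B220+ cells (-2.26 ± 0.40), and Spib, an ETS factor of B cells, 4.3 in bone marrow, 33.3 in spleen and 45.9 in B220+ cells (-2.78 ± 0.41). Foxp1 and Id3, regulators of B cell differentiation, were at -2.87 ± 0.28 and -1.86 ± 0.14. Ebf1, a factor of B cell commitment, departed from this with 196 in bone marrow, 149 in spleen and 383 in B220+ cells (0.57 ± 0.11), as did Ikzf3, the Ikaros family member Aiolos, at 0.47 ± 0.11. Bcl6, the factor of germinal centre B cells, was undetected in both organs and read 12.4 in B220+ cells.

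Among surface proteins, Ms4a1 (CD20) read 334 in bone marrow, 2619 in spleen and 10153 in B220+ cells, 6.97-fold lower (-2.80 ± 0.11). Cd22, an inhibitory receptor, read 38 in bone marrow, 119 in spleen and 833 in B220+ cells (-1.48 ± 0.12), Cd37, a tetraspanin, was at -1.43 ± 0.11, and Cd83, an activation marker, at -2.96 ± 0.12. Cd79a and Cd79b, the signalling chains of the B cell receptor, lay between, at -0.49 ± 0.11 and -0.84 ± 0.11. Cd52 (0.75 ± 0.11), Cd40 (0.43 ± 0.11) and Fcrla (0.62 ± 0.11) lay above the median of all genes. Fcer2a (CD23, the low-affinity IgE receptor) was the 1 higher gene, with 166 in bone marrow, 62.4 in spleen and 349 in B220+ cells (1.58 ± 0.11). Of the 18 lower genes, 13 kept the call with normexp correction and 17 with the local background subtracted. Bach2, Spib and Cd22 were among those that lost it in the first case, where the list median was -0.75. Bach2 and Spib were dim in both organs, so the offset of that correction left them little room to keep it.

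Genes of B cell receptor signalling were lower in 13 of 26, against 10.9% of all genes, and higher in 0, with a median of -1.03. Blk, a kinase of the Src family placed in the B cell list, read 48.3 in bone marrow, 982 in spleen and 718 in B220+ cells (-4.17 ± 0.12). Prkcb, which links the receptor to NF-kB, read 14.1 in bone marrow, 142 in spleen and 554 in B220+ cells, 8.92-fold lower (-3.16 ± 0.16), and Pik3cd, the delta subunit of PI3 kinase, was at -2.76 ± 0.32. Bank1 (-1.32 ± 0.12) and Malt1 (-1.41 ± 0.12), scaffolds of the same pathway, Vav1 (-1.18 ± 0.12), an exchange factor, and Inpp5d (-1.75 ± 0.13), the phosphatase SHIP-1, were also lower. The proximal kinases Syk (-0.28 ± 0.12) and Btk (-0.70 ± 0.11) and the adaptor Blnk (-0.18 ± 0.11) lay between. With normexp correction 3 of the 13 calls were kept, and with the local background subtracted 9.

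In antigen presentation 4 of 17 genes (23.5%, against 10.9% of all genes) were lower, 1 was higher and 12 lay between, with a median of 0.12, and the 4 lower genes belong to the MHC class II route or to costimulation. H2-Aa, an MHC class II chain, read 644 in bone marrow, 6458 in spleen and 19941 in B220+ cells, 8.90-fold lower (-3.15 ± 0.11). Ciita, the master activator of these genes, read 30.9 in bone marrow, 105 in spleen and 381 in B220+ cells (-1.60 ± 0.13), Ifi30, a lysosomal thiol reductase, was at -1.27 ± 0.11, and Cd86, a costimulatory ligand, at -3.18 ± 0.40 with 4.4 in bone marrow, 45.0 in spleen and 89.2 in B220+ cells. Cd74, the invariant chain, did not follow H2-Aa and read 5177 in bone marrow, 4843 in spleen and 8767 in B220+ cells (0.27 ± 0.11). B2m, the light chain of MHC class I, was at 0.76 ± 0.11, and Ctss, the protease that trims the invariant chain, at 0.94 ± 0.11. Rfx5, a factor of the class II promoter complex, was the 1 higher gene, with 84.1 in bone marrow, 41.4 in spleen and 9.3 in B220+ cells (1.19 ± 0.12), a call lost with normexp correction and with the local background subtracted.

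**Figure D3:**
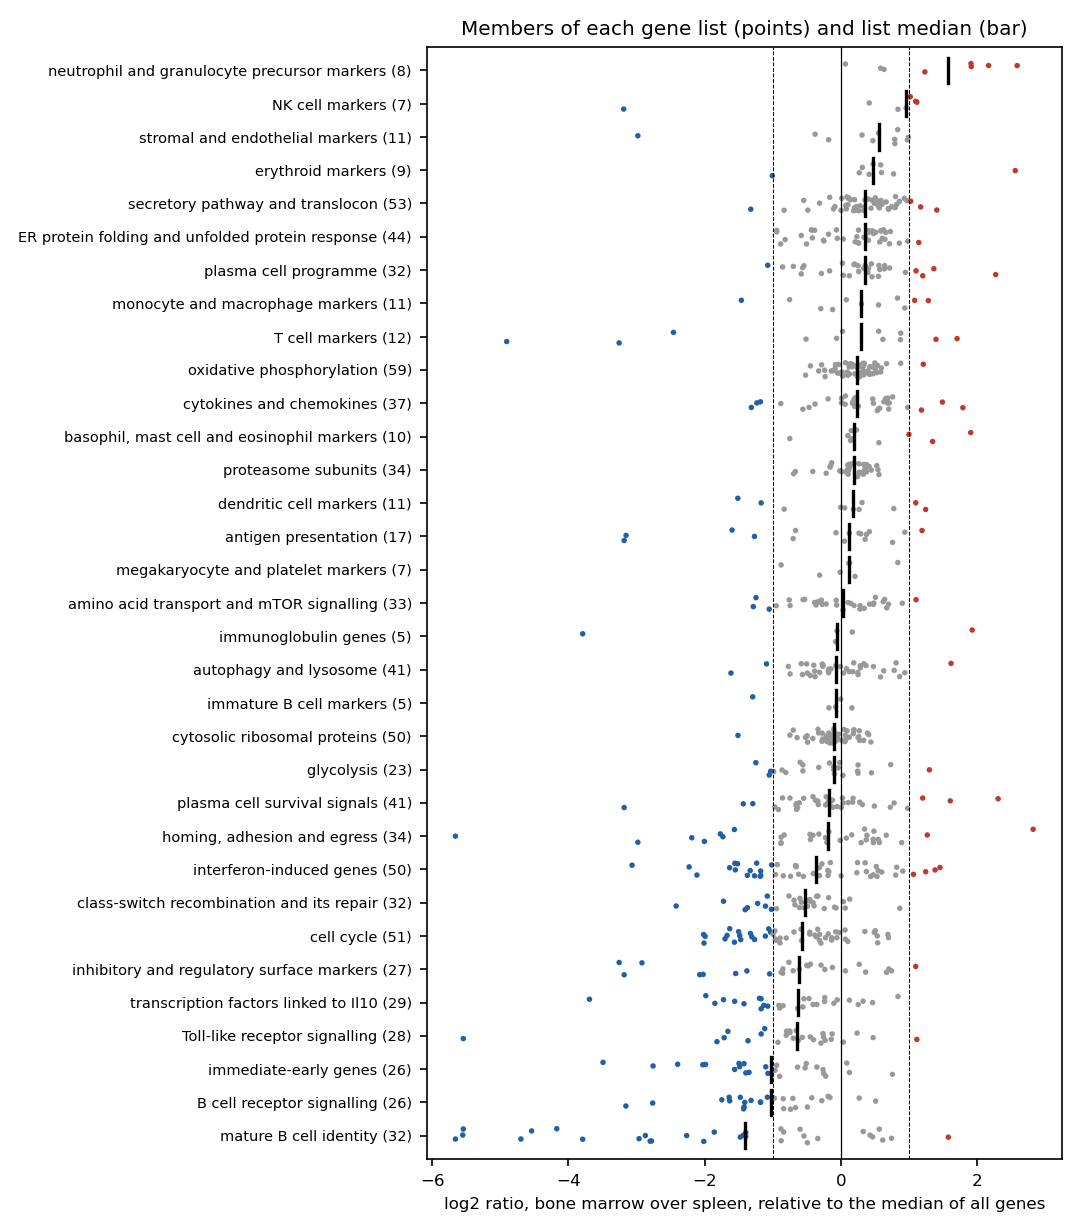
Relative log2 ratio, bone marrow over spleen (x axis), of every member detected in both organs for each gene list, with the number of such members in brackets. Points past the dashed lines are at least 2-fold higher or lower, and the bars are list medians. Mature B cell identity has the lowest median (-1.41) and the granulocyte markers the highest (1.58).

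The machinery of antibody secretion lay slightly above the median of all genes in bone marrow, with few genes past 2-fold. Among 44 genes for protein folding in the ER and for its stress response, 1 was higher (2.27%, against 7.22% of all genes), 43 lay between and 0 were lower (against 10.9%), and the median was 0.35. Of 53 genes of the secretory pathway and translocon, 3 (5.66%) were higher, 49 lay between and 1 (1.89%) was lower, against the same shares of all genes, and the median was 0.36. On the scale the authors set, without the centring, the ER median was 0.18. Among all genes split by signal into 8 bins, the brightest bin (1420 genes) had a median of 0.14, with 112 higher and 77 lower. The list medians were not adjusted for signal. The unfolded protein response controls chaperone genes through the ER stress element, to which XBP1 and ATF6 bind.

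The ER stress element, the letters CCAAT and CCACG with 9 bases of any kind between them, was searched on both strands of windows from 250 bases before to 50 bases after the start of genes in RefSeq (build GRCm38.p6). It was found in 0.119% of 32851 windows and in 0.186% of the 9162 genes detected in both organs with a window. Of the 41 measured ER genes with a window, 9 had it, and all 9 lay between, as did 38 of the 41. The 3 stretches below, from 3 of these 9 genes, are given on the strand of the gene, with the element or its reverse complement in capitals. A match of letters is a description and not a bound site.
Hspa5 (chr2:34772000-34772068, plus strand): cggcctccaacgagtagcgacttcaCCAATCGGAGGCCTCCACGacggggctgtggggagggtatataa
Hsp90b1 (chr10:86705508-86705576, minus strand): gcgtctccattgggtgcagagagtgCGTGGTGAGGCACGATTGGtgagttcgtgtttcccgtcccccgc
Derl3 (chr10:75893217-75893285, plus strand): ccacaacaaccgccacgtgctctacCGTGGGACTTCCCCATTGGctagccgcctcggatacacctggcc

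Hspa5, the ER chaperone BiP, read 8551 in bone marrow, 7266 in spleen and 1795 in B220+ cells (0.41 ± 0.11). Hsp90b1, the chaperone GRP94, read 10232 in bone marrow, 9603 in spleen and 1913 in B220+ cells (0.26 ± 0.11), and Derl3, a channel component of ER-associated degradation, 2796 in bone marrow, 2375 in spleen and 15.8 in B220+ cells (0.41 ± 0.11). All 3 genes had higher signals on both Venus+ arrays than on the B220+ array, and under 2-fold between the organs. Creb3l2, a membrane-bound transcription factor of secretory cells and the 1 higher gene of the ER list, read 45.6 in bone marrow, 23.2 in spleen and 2.2 in B220+ cells (1.15 ± 0.13), a call lost in 3 alternatives. Manf, a secreted ER stress factor, was at 0.86 ± 0.11 and Edem2, a mannosidase-like factor of degradation, at 0.99 ± 0.11. Ero1a (-0.94 ± 0.20), an ER oxidase, and Uggt1 (-0.88 ± 0.12), a folding sensor of glycoproteins, were at the low end. Ern1, the sensor IRE1 that activates XBP1, was detected in spleen alone, at 4.2.

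In the secretory pathway, Sec62, part of the translocon, read 7093 in bone marrow, 3005 in spleen and 415 in B220+ cells, 2.66-fold higher (1.41 ± 0.11). Lman1, a cargo receptor between ER and Golgi, read 938 in bone marrow, 468 in spleen and 115 in B220+ cells (1.17 ± 0.11), and Sec11c, a signal peptidase subunit, 9700.3 in bone marrow, 5357 in spleen and 1217 in B220+ cells (1.03 ± 0.11). The translocon pore gene Sec61a1 lay at 0.09 ± 0.11. Sec24b, a coat protein of transport vesicles, was the 1 lower gene (-1.32 ± 0.14). Of the 3 higher genes, only Sec62 kept the call with normexp correction. Proteasome subunits, which degrade misfolded proteins among others, lay between in 34 of 34, against 81.9% of all genes, with a median of 0.19.

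Among genes that steer lymphocytes, a few receptors stood far apart while the group lay near the median of all genes. Of 42 measured genes of homing, adhesion and egress, 34 were detected in both organs, with 2 (5.88%, against 7.22% of all genes) higher, 7 (20.6%, against 10.9%) lower, 25 between and a median of -0.19. The other 8 were 4 genes detected in spleen alone, each at least 2-fold by its bound, and 4 in neither. Of all 12595 genes detected in at least 1 organ, 242 (1.92%) were in spleen alone with such a bound. The receptor of bone marrow homing, Cxcr4, read 131 in bone marrow, 113 in spleen and 235 in B220+ cells (0.39 ± 0.11) and lay between.

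Ccr10, the receptor for CCL27 and CCL28 found on plasma cells that home to mucosal and marrow sites, read 106 in bone marrow and 16.8 in spleen, undetected in B220+ cells, 7.10-fold higher (2.83 ± 0.14). Jaml, a junctional adhesion molecule, was the other higher gene, at 1.27 ± 0.11. Selplg (0.38 ± 0.11), the selectin ligand PSGL-1, Itgal (0.16 ± 0.11), the alpha chain of LFA-1, and Itga4 (-0.22 ± 0.29), the alpha chain of VLA-4, lay between. Ccr9 (-0.83 ± 0.14) and Cxcr3 (-0.41 ± 0.22), receptors for gut and for inflamed sites, did too.

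Several receptors for lymphoid tissue and for exit into blood were lower. S1pr1, which leads lymphocytes out along sphingosine 1-phosphate, read 194 in spleen and 875 in B220+ cells, undetected in bone marrow, at least 71.6-fold lower. S1pr4, another receptor of that lipid, read 12.5 in bone marrow, 64.2 in spleen and 225 in B220+ cells (-2.19 ± 0.18), and Klf2, the transcription factor that drives S1pr1, read 27.4 in bone marrow, 56.8 in spleen and 118 in B220+ cells (-0.88 ± 0.13), under 2-fold. Ccr7, the receptor for T zones, read 65.3 in spleen and 303 in B220+ cells, undetected in bone marrow, at least 24.1-fold lower, and Ackr3, a scavenging receptor of CXCL12, was at -1.73 ± 0.12 with 32.6 in bone marrow, 122 in spleen and 10.3 in B220+ cells. Of the adhesion molecules, Itgb1 (-1.77 ± 0.12), Itgb7 (-1.56 ± 0.13), Itga6 (-2.00 ± 0.60) and Pecam1 (-2.98 ± 0.46) were lower. Of the 7 lower genes, 4 kept the call with normexp correction, and Pecam1, Itga6 and Itgb7 did not. Cd44, the hyaluronan receptor, was undetected on all 3 arrays.

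**Figure D4:**
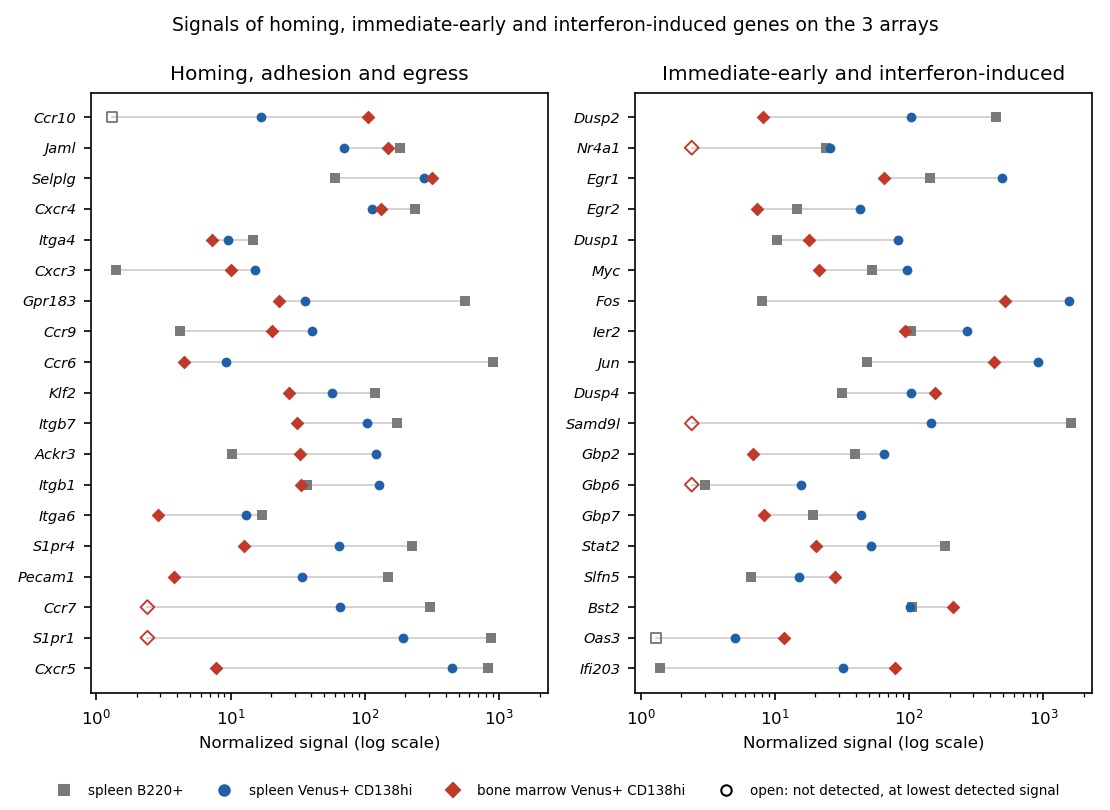
Normalized signals (x axis, logarithmic) on the 3 arrays for genes of homing, adhesion and egress and for immediate-early and interferon-induced genes, with open symbols for genes not detected, drawn at the lowest detected signal of that array. S1pr1 and Ccr7 are open for bone marrow only, and Ccr10 is the gene with the largest shift toward bone marrow in the left panel.

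Cytokine genes passed 2-fold about as often as other genes. Of 61 measured genes, 37 were detected in both organs, with 3 (8.11%) higher, 3 (8.11%) lower, against 7.22% and 10.9% of all genes, 31 between and a median of 0.24, and 19 were detected in neither. Il23a, a subunit of IL-23, read 155 in bone marrow, 50.2 in spleen and 3.5 in B220+ cells, 3.47-fold higher (1.80 ± 0.12). Ebi3, which pairs with other subunits to form IL-27 and IL-35, read 596 in bone marrow, 433 in spleen and 54.8 in B220+ cells (0.64 ± 0.11), and Il12a, the other chain of IL-35, read 3.4 in bone marrow, 9.0 in spleen and 115 in B220+ cells (-1.23 ± 0.53). Il13, a type 2 cytokine, had 1015 in bone marrow, 1094 in spleen and 34.3 in B220+ cells (0.07 ± 0.11). Il7 and Tnfsf10 (TRAIL) were higher and dim, at 1.19 ± 0.32 and 1.49 ± 0.43, and both calls, like that of Il12a, were lost with normexp correction and with the local background subtracted. Ltb (-1.18 ± 0.11), the lymphotoxin subunit, and Il16 (-1.31 ± 0.12), a chemoattractant of CD4+ cells, were lower. Tgfb1 lay at -0.56 ± 0.21, and Il6 and Il21 were undetected in both organs. Tnf, Ifng and Il4 were detected in spleen alone, at 2.4, 2.7 and 2.7, against a lowest detected signal of 1.7.

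Inhibitory and regulatory surface genes were lower in 8 of 27 (29.6%, against 10.9% of all genes), with 1 higher, 18 between and a median of -0.61. Cd5, a brake on antigen receptor signalling found on B-1 and T cells, read 7.7 in bone marrow, 82.9 in spleen and 3.1 in B220+ cells, 9.55-fold lower (-3.26 ± 0.25). Siglecg, an inhibitory lectin of B-1 cells, read 15.1 in bone marrow, 129 in spleen and 429 in B220+ cells (-2.92 ± 0.16). Pdcd1 (PD-1) was at -2.07 ± 0.42, Ctla4 at -1.54 ± 0.13 with 25.3 in bone marrow, 83.1 in spleen and 2.0 in B220+ cells, Btla at -1.38 ± 0.11 and Cd200r1 at -2.02 ± 0.44. Cd274 (PD-L1) read 108 in bone marrow, 185 in spleen and 109 in B220+ cells (-0.61 ± 0.11) and Lag3 read 15.7 in bone marrow, 20.8 in spleen and 5.0 in B220+ cells (-0.23 ± 0.17), both between. Gzmb, granzyme B, was the 1 higher gene, with 385 in bone marrow, 202 in spleen and 18.8 in B220+ cells (1.10 ± 0.11), and turned to -3.22 with the local background subtracted. With normexp correction 3 of the 8 lower calls were kept.

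Immediate-early genes, which are switched on within minutes of stimulation and also by the handling of cells, were lower in 13 of 26, against 10.9% of all genes, higher in 0 and between in 13, with a median of -1.02. Of 8 further genes, 3 were detected in spleen alone (against 1068 of all 12595 genes detected in at least 1 organ) and 5 in neither. Egr1, a zinc finger factor, read 64.9 in bone marrow, 494 in spleen and 142 in B220+ cells, 6.76-fold lower (-2.76 ± 0.12), and Egr2 read 7.3 in bone marrow, 43.3 in spleen and 14.6 in B220+ cells (-2.40 ± 0.26). Fos read 513 in bone marrow, 1549 in spleen and 8.0 in B220+ cells (-1.42 ± 0.11), and Jun, its partner in AP-1, 431 in bone marrow, 905 in spleen and 48.1 in B220+ cells (-0.90 ± 0.11), under 2-fold. Fos and Jun were higher on both Venus+ arrays than on the B220+ array, and highest in spleen. Dusp2 (-3.49 ± 0.24) and Dusp1 (-2.03 ± 0.15), phosphatases that end MAP kinase signals, Myc (-1.99 ± 0.14), Klf6 (-1.48 ± 0.11) and Ier2 (-1.35 ± 0.11) were lower as well. Nr4a1, which reports antigen receptor signals, read 25.6 in spleen and 24.0 in B220+ cells, undetected in bone marrow, at least 9.47-fold lower. Dusp4 (0.76 ± 0.11) and Junb (-0.35 ± 0.11) lay between. With normexp correction 7 of the 13 calls were kept, Egr2 not among them. The sources used here do not give the time from tissue to lysis for each organ, and its part in these values was not tested.

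Transcription factors linked to Il10 were lower in 11 of 29 (37.9%, against 10.9% of all genes), higher in 0 and between in 18, with a median of -0.63, while Il10 itself lay at 0.21 ± 0.11. Ahr, the aryl hydrocarbon receptor, read 7.1 in bone marrow, 103 in spleen and 7.4 in B220+ cells, 12.9-fold lower (-3.69 ± 0.26). Batf, an AP-1 family factor, read 25.8 in bone marrow, 95.9 in spleen and 57.6 in B220+ cells (-1.72 ± 0.13), Nfkb1, a subunit of NF-kB, 45.4 in bone marrow, 184 in spleen and 323 in B220+ cells (-1.85 ± 0.12), and Hif1a, the hypoxia factor, 17.5 in bone marrow, 45.1 in spleen and 124 in B220+ cells (-1.19 ± 0.15). Stat6 (-1.56 ± 0.19), Irf8 (-1.17 ± 0.12), Sp1 (-1.98 ± 0.42), Fos and Prdm1 belonged to the same 11. Stat3, which carries the signal of IL-10 and IL-6, read 70.1 in bone marrow, 84.7 in spleen and 139 in B220+ cells (-0.10 ± 0.12), and Eomes, a T-box factor, was the highest member at 0.84 ± 0.16. Maf, an activator of Il10 in T cells, read 3.5 in spleen and 3.0 in B220+ cells, undetected in bone marrow, and Rora 12.2 in spleen and 70.5 in B220+ cells, undetected in bone marrow. With normexp correction 4 of the 11 calls were kept.

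Interferon-induced genes were among both the lower and the higher genes. Of 50 detected in both organs, 15 were lower (against 10.9% of all genes), 4 were higher (8.0%, against 7.22%) and 31 lay between, with a median of -0.36. Another 5 were detected in spleen alone, among them Samd9l, against 1068 of all 12595 genes detected in at least 1 organ. The interferon-stimulated response element, the letters GAAA repeated after 2 bases of any kind, was searched on both strands of the same windows. It was found in 3.44% of 32851 windows and in 3.54% of the 9162 genes detected in both organs with a window. Of the 44 measured interferon-induced genes with a window, 21 (47.7%) had it, among them 4 of 4 higher, 6 of 12 lower and 9 of 22 between. The letters were present in genes of both directions, as the stretches of 3 lower genes (Gbp2, Gbp7 and Stat2) and 3 higher genes (Oas3, Bst2 and Ifi203) show. A match is again a description, and the stretches are given on the strand of the gene with the element or its reverse complement in capitals.
Gbp2 (chr3:142620579-142620638, plus strand): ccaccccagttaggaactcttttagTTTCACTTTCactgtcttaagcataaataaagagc
Gbp7 (chr3:142530258-142530317, plus strand): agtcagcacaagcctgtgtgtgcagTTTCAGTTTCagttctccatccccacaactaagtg
Stat2 (chr10:128270251-128270310, plus strand): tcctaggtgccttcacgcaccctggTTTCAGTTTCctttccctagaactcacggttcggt
Oas3 (chr5:120777700-120777759, minus strand): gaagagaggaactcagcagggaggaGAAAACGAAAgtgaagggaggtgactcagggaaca
Bst2 (chr8:71537562-71537621, minus strand): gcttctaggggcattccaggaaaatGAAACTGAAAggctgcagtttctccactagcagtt
Ifi203 (chr1:173942493-173942552, minus strand): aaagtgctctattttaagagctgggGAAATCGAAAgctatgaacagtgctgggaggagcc

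Several guanylate-binding proteins, GTPases of cell-autonomous defence, were lower. Gbp2 read 6.9 in bone marrow, 65.1 in spleen and 39.6 in B220+ cells, 8.37-fold lower (-3.07 ± 0.27), Gbp7 read 8.3 in bone marrow, 43.8 in spleen and 19.1 in B220+ cells (-2.23 ± 0.23), and Gbp6 read 15.6 in spleen and 3.0 in B220+ cells, undetected in bone marrow, at least 5.77-fold lower. Stat2, a subunit of the factor that binds the element, read 20.2 in bone marrow, 51.7 in spleen and 184 in B220+ cells (-1.18 ± 0.14), and Dtx3l (-2.11 ± 0.14) and Trim25 (-1.33 ± 0.11), ubiquitin ligases of antiviral defence, were lower. Bst2, the tetherin that holds budding virions, read 213 in bone marrow, 101 in spleen and 105 in B220+ cells, 2.38-fold higher (1.25 ± 0.11). Ifi203, a DNA-binding protein of the HIN200 family, read 78.3 in bone marrow, 32.1 in spleen and 1.4 in B220+ cells (1.46 ± 0.12), Oas3, a synthetase of 2-5A, 11.6 in bone marrow and 5.0 in spleen, undetected in B220+ cells (1.39 ± 0.31), and Slfn5, of the schlafen family, 28.1 in bone marrow, 15.1 in spleen and 6.6 in B220+ cells (1.07 ± 0.15). Irf7, a central factor of the interferon response, lay at -0.65 ± 0.15, and Mx1 at 0.44 ± 0.20. With normexp correction 6 of the 15 lower and 2 of the 4 higher calls were kept, and with the local background subtracted 6 and 2.

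Genes of cell division were lower in bone marrow or lay between. Of 51 cell cycle genes detected in both organs, 16 (31.4%, against 10.9% of all genes) were lower, 35 lay between and 0 were higher (median -0.57). Another 6 were detected in spleen alone, against 1068 of all 12595 genes detected in at least 1 organ. Hmmr, a spindle protein, read 5.8 in bone marrow, 26.4 in spleen and 45.9 in B220+ cells (-2.01 ± 0.32), Mcm3 (-2.01 ± 0.23) and Mcm4 (-1.70 ± 0.14), subunits of the replication helicase, were lower, and Cenpa, the centromere histone, read 26.3 in bone marrow, 118 in spleen and 575 in B220+ cells (-1.99 ± 0.13). Aurkb, a mitotic kinase, read 114 in bone marrow, 318 in spleen and 543 in B220+ cells (-1.31 ± 0.11) and Top2a, a topoisomerase of replication, 15.9 in bone marrow, 37.3 in spleen and 134 in B220+ cells (-1.06 ± 0.16). Mki67 (-0.31 ± 0.12) and Pcna (-0.31 ± 0.11), common markers of proliferation, lay between, with 71.9 in bone marrow, 101 in spleen and 88.2 in B220+ cells for Mki67. In 35 of the 51 genes the order was B220+, spleen, bone marrow, against 4373 of all 11354 genes. With normexp correction 2 of the 16 calls were kept, those of Cenpa and Aurkb, and the median was -0.20. The letters TTTGAA, the cell cycle homology region, were found on either strand in 24 of the 51 measured cell cycle genes with a window. This compares with 15.1% of the genes detected in both organs that have a window, and with 17.9% of all windows. Among the cell cycle genes they were found in 5 of 12 lower and 14 of 30 between.

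Class-switch recombination and its repair were read by 32 genes, of which 8 were lower (25.0%, against 10.9% of all genes), 24 lay between and 0 were higher (median -0.52). Atm, the kinase that senses double-strand breaks, read 9.0 in bone marrow, 54.2 in spleen and 94.1 in B220+ cells (-2.42 ± 0.22). Apex1 (-1.37 ± 0.12), an endonuclease of base excision, Rad50 (-1.22 ± 0.14), a break-binding protein, and Dclre1c (-1.40 ± 0.31), the nuclease Artemis, were lower. Ung, which removes uracil from DNA during switching, read 46.6 in bone marrow, 51.1 in spleen and 90.5 in B220+ cells (0.04 ± 0.12), and Polh, a polymerase of hypermutation, was the highest member at 0.87 ± 0.14. The deaminase that starts class switching is not analysed here. With normexp correction 1 of the 8 calls was kept, and with the local background subtracted 5, where Apex1 turned to 3.58.

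Survival genes passed 2-fold about as often as other genes. Of 41 detected in both organs, 3 (7.32%, against 7.22% of all genes) were higher, Tnfrsf17 among them, 35 lay between and 3 (against 10.9%) were lower. The list median was -0.17. Bcl2 (0.73 ± 0.11), Bcl2l1 (-0.05 ± 0.14) and Mcl1 (-0.16 ± 0.11), which hold back apoptosis, lay between, as did Tnfrsf13b (-0.16 ± 0.11), the receptor TACI. For Bcl2 the direction turned with the probe, since a second detected probe was lower, at -1.23. The kinases Pim3 and Pim1 went opposite ways, with 177 in bone marrow, 65.3 in spleen and 55.8 in B220+ cells for Pim3 (1.61 ± 0.11) and 237 in bone marrow, 654 in spleen and 67.2 in B220+ cells for Pim1 (-1.29 ± 0.11). Bik, a dim proapoptotic gene, was at 2.31 ± 0.61, with 9.7 in bone marrow and 2.2 in spleen. Its call was lost with normexp correction and with the local background subtracted. Il6st, the shared chain of IL-6 receptors, was at -0.54 ± 0.11.

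Toll-like receptor signalling had 7 lower genes of 28 (25.0%, against 10.9% of all genes), 1 higher and a median of -0.64. Cd180, an orphan receptor that works with Ly86, read 16.0 in bone marrow, 59.1 in spleen and 41.5 in B220+ cells (-1.71 ± 0.16), so both parts of that complex were lower, and Tlr7, the receptor for single-stranded RNA, read 5.1 in spleen and 5.4 in B220+ cells, undetected in bone marrow. Tlr4 lay at -0.80 ± 0.16. Tnfaip3 (A20), which ends NF-kB signals, was higher (1.12 ± 0.12), and Irak2 was at -1.82 ± 0.47. Normexp correction ended the calls of Cd180, Tnfaip3 and Irak2, and Irak2 turned to 1.23 with the local background subtracted.

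Metabolic and housekeeping lists had few genes past 2-fold, against 18.1% of all genes in either direction, with glycolysis (4 of 23) nearest to that share. Oxidative phosphorylation had 1 higher gene of 59, 0 lower and a median of 0.24, and that gene was Ndufa1 (1.21 ± 0.11), a subunit of complex I. Cytosolic ribosomal proteins had 1 lower gene of 50, Rps25 (-1.51 ± 0.14), and a median of -0.10. Glycolysis had 1 higher and 3 lower genes of 23, with Aldoc, an aldolase, at 1.30 ± 0.12 and Ldha, lactate dehydrogenase, at -1.03 ± 0.11. The Ldha call was lost in several alternatives, among them normexp correction, the local background and both signal minimums, while that of Aldoc was kept. With normexp correction and with the local background subtracted, 0 of the 3 lower calls were kept. Of 33 genes of amino acid transport and mTOR signalling, Pycr1 was the 1 higher gene, 3 were lower, and Slc3a2, the heavy chain of the CD98 transporter, read 4211 in bone marrow, 2915 in spleen and 162 in B220+ cells (0.70 ± 0.11). Asns, asparagine synthetase, read 241 in bone marrow, 176 in spleen and 2.8 in B220+ cells (0.63 ± 0.11). Autophagy and lysosome had 1 higher gene of 41, Atg9a (1.62 ± 0.12), a lipid scramblase of autophagosomes, and 2 lower, among them Ctsh (-1.61 ± 0.11), a lysosomal protease.

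Markers of granulocytes had the highest median of the 33 lists. Of 21 measured genes, 8 were detected in both organs, with 5 (against 7.22% of all genes) higher, 0 lower and a median of 1.58. Another 8 were detected in bone marrow alone (against 173 of all 12595 genes detected in at least 1 organ), and 5 in neither. S100a9, an abundant protein of neutrophils, read 69.5 in bone marrow and 2553 in B220+ cells, undetected in spleen, at least 46.1-fold higher in bone marrow. S100a8, its partner, read 66.9 in bone marrow, 12.5 in spleen and 1649.7 in B220+ cells (2.59 ± 0.15), Mpo, the myeloperoxidase of granule precursors, 29.8 in bone marrow and 2.2 in B220+ cells, undetected in spleen, and Camp, a granule peptide, 21.0 in bone marrow and 491 in B220+ cells, undetected in spleen. Ly6g, the surface marker of neutrophils, read 334 in bone marrow, 99.6 in spleen and 38.9 in B220+ cells (1.92 ± 0.11). Ctsg, a protease of granulocyte precursors, read 30.1 in bone marrow, 9.0 in spleen and 5.9 in B220+ cells (1.91 ± 0.19), and Prtn3, another such protease, was detected in bone marrow alone, at 8.2. Lcn2, a late granule protein, lay at 0.07 ± 0.19. The summed signal of the list was 632 in bone marrow, 160.4 in spleen and 5602 in B220+ cells, so the B220+ array, not the bone marrow array, held most of it. Of the 5 higher genes, 2 kept the call with normexp correction, and the median of those detected in both organs was then 0.17.

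Of the 9 lists of markers of other cells, 8 had medians above 0, at 0.96 for NK cells, 0.56 for stromal and endothelial cells, 0.48 for erythroid cells, 0.31 for monocytes and macrophages, 0.29 for T cells, 0.20 for basophils, mast cells and eosinophils, 0.18 for dendritic cells and 0.12 for megakaryocytes. The median of the immature B cell markers was -0.08. Each list had 12 or fewer members detected in both organs. With genes detected in 1 organ set at their bounds, the T cell median was -0.26, and the other medians kept their sign. Of the T cell markers, 5 were detected in spleen alone and 0 in bone marrow alone. Of all 12595 genes detected in at least 1 organ, these counts were 1068 and 173. Among all genes split by signal into 8 bins, the dimmest bin had a median of 0.24 and the next 0.12. The medians of the marker lists were not adjusted for this. Of 12 T cell markers detected in both organs, 2 were higher (16.7%, against 7.22% of all genes) and 3 lower (25.0%, against 10.9%). The 2 higher were Cd8b1 (1.71 ± 0.13) and Cd3e, and the 3 lower were Cd2 (-4.91 ± 0.23), Cd5 (-3.26 ± 0.25) and Cd3g. With normexp correction 0 of the 2 higher and 3 of the 3 lower calls were kept. The summed signal was 1697 in bone marrow, 1737 in spleen and 450.5 in B220+ cells. The 3 CD3 chains were called differently, with Cd3e at 1.40 ± 0.22, Cd3d at -0.51 ± 0.14 and Cd3g at -2.46 ± 0.22. The call of Cd3e was lost with normexp correction and with the local background subtracted, and that of Cd3g was kept in both. Cd247, the zeta chain shared with other receptors, read 1039 in bone marrow, 637 in spleen and 15.7 in B220+ cells (0.88 ± 0.11). Thy1, a surface marker of T cells, read 11.2 in spleen and 1.6 in B220+ cells, undetected in bone marrow. Of 7 NK cell markers 3 were higher (42.9%, against 7.22% of all genes) and 1 lower (14.3%, against 10.9%). With normexp correction, with the local background subtracted and without the centring, 0 of these 3 higher calls were kept. Tyrobp, an adaptor of NK and myeloid cells, was at -3.19 ± 0.18, and Ncr1, the defining receptor, was undetected in both organs. Basophil, mast cell and eosinophil markers had 3 higher of 10 (30.0%, against 7.22% of all genes) and 0 lower (against 10.9%). Mcpt8, a basophil protease, read 143 in bone marrow, 43.0 in spleen and 17.5 in B220+ cells (1.91 ± 0.12), and Gata2 was at 1.35 ± 0.14. With normexp correction 1 of the 3 calls was kept, and with the local background subtracted 2. Prg2, an eosinophil granule protein that plasma cells also express, read 6084 in bone marrow, 4646 in spleen and 3.8 in B220+ cells (0.56 ± 0.11).

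Among monocyte and macrophage markers, 2 of 11 were higher (18.2%, against 7.22% of all genes) and 1 lower (9.09%, against 10.9%). Csf1r, the receptor that defines the lineage, read 27.3 in bone marrow, 24.9 in spleen and 23.9 in B220+ cells (0.31 ± 0.14). Cd68 was at 1.29 ± 0.11, and Cd14 was undetected on all 3 arrays. Of 9 erythroid markers 1 was higher (Car2, 2.56 ± 0.66) and 1 lower (11.1% each, against 7.22% and 10.9% of all genes). Of 11 dendritic cell markers 2 were higher and 2 lower (18.2% each, against the same shares). Of 7 megakaryocyte markers 0 differed by 2-fold, against 18.1% of all genes, with Pf4 undetected in both organs. Stromal and endothelial markers had 1 lower gene of 11 (9.09%, against 10.9% of all genes), Pecam1, and 0 higher (against 7.22%). Immature B cell markers, which bone marrow could add, had 1 lower of 5 (20.0%, against 10.9% of all genes) and 0 higher (against 7.22%). Rag1, Rag2 and Dntt, which build antigen receptor genes, were undetected in both organs. The granulocyte markers were higher in bone marrow in the same comparison as every group described above, and their part in those differences was not tested.

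**Figure D5:**
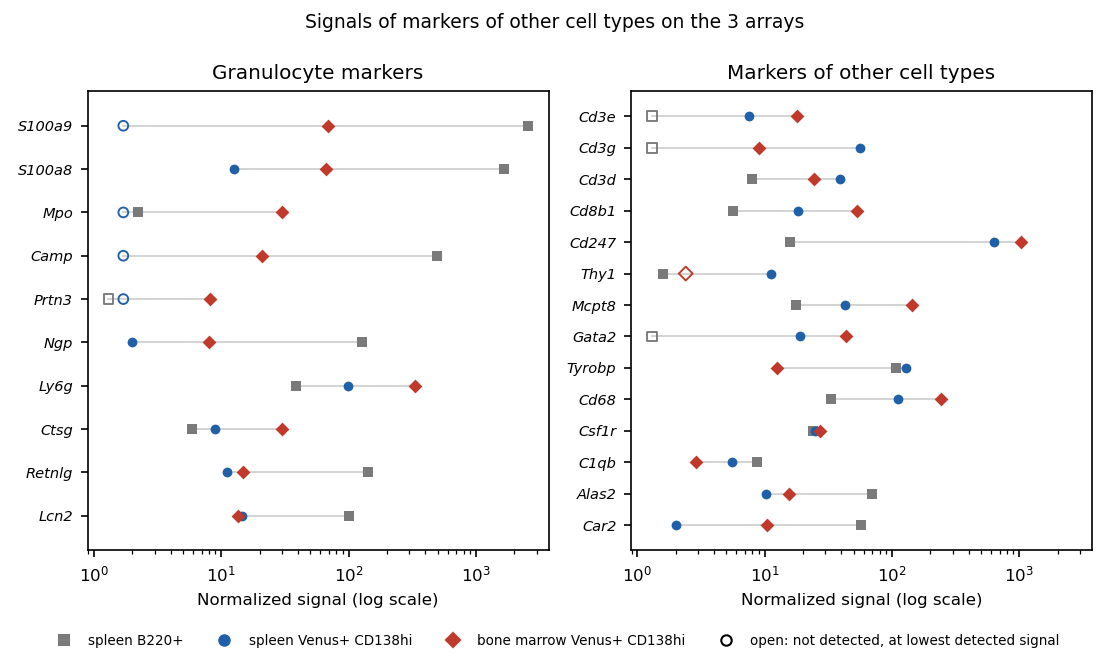
Normalized signals (x axis, logarithmic) on the 3 arrays for granulocyte markers and for markers of other cell types, with open symbols for genes not detected, drawn at the lowest detected signal of that array. S100a9, Mpo, Camp and Prtn3 are open for spleen, and for S100a9, S100a8 and Camp the B220+ symbol lies right of the bone marrow symbol.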

How the data were processed

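RNA of Venus+ CD138hi cells from bone marrow and spleen and of B220+ cells from spleen was read on 1 single-colour Toray 3D-Gene array each. The authors deposited scanner files with spot intensity values and a table of normalized intensity. The series' design text says that the authors took off the mean of the blank spots and set the median detected signal to 25, and undetected probes are empty. Rebuilt from the scanner files with the middle 90% of 2736 blank spots and a limit of 2 SD above their mean, detection differed from the deposited table for 0 probes. Scale (linear), centring (none) and direction follow from that match, and each column has a median of 25. The sources used here do not give software versions.

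Ratios used the deposited table. Of 23473 probes, 16631 had a symbol from the platform annotation, updated through RefSeq (GRCm38.p6), and a gene was read by the probe whose mean log2 signal over both organs was highest. A gene was called at 2-fold relative to the median of all genes. For a gene detected in 1 organ, the bound set the bright signal against the higher of the dim array's lowest detected signal and the dim probe's own value, relative to the same median. Probes marked faulty by the scanner (2, 1 and 0 on the bone marrow, spleen and B220+ arrays) have no symbol. The spot error used 24 copies of each positive control. Scripts ran in Python 3.11.15 with pandas 2.3.3 and NumPy 2.4.6, and normexp correction (offset 50) in R 4.3.3 with limma 3.58.1; the calling was tested on simulated data. The alternatives were the recipe rebuilt from the scanner files, normexp with quantile normalization, the local background, no centring, quantile normalization, signal minimums of 10 and 25, folds of 1.5 and 3, the mean over probes, and, chosen after seeing the data, a background from spots without a probe.

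The genes compared and the 33 gene lists were chosen with earlier results of these data known. Genes named were the 12 highest and 12 lowest ratios with a signal of at least 50, the 8 highest bounds each way, the 3 highest and lowest members and 3 highest bounds of each list, all members of 7 lists, and a few set genes; 58 further genes in the text or figures, among them Fos, Ms4a1, Hspa5 and Stat3, were chosen after their values were seen.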

Additional observations from a re-analysis of the deposited data

How the results depend on the processing

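No paired analysis was possible because each population has 1 array, and for the same reason no replicate could be left out. Normexp correction, run with an offset of 50 added to every signal and with quantile normalization, gave 149 higher and 219 lower genes. Quantile normalization of the deposited signals, without that correction, gave 784 higher and 1202 lower. The parts of the background method and the offset in the fall to 149 and 219 were not separated. Without the centring 491 were higher. With a signal of at least 10 in both organs 495 were higher and 678 lower, and with at least 25 in either organ 681 were lower, since fewer genes were counted. At 3-fold the counts were 175 and 412, and at 1.5-fold 2427 and 2586. With a background from spots without a probe, chosen after seeing the data, 82 genes were detected in bone marrow alone.

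With normexp correction the list medians were 0.22 for the plasma cell programme, 0.21 for ER folding, -0.75 for mature B cell identity, -0.58 for B cell receptor signalling, -0.20 for the cell cycle, -0.62 for immediate-early genes, -0.16 for interferon-induced genes and 0.17 for granulocyte markers. With the local background subtracted they were 0.49 for the plasma cell programme, -0.35 for the cell cycle, -0.82 for immediate-early genes and 0.38 for granulocyte markers. Without the centring they were 0.18 for the plasma cell programme and for ER folding, -0.75 for the cell cycle and -0.53 for interferon-induced genes. With at least 10 in both organs, which leaves out genes dim in bone marrow, they were -0.82 for mature B cell identity, -0.94 for B cell receptor signalling, -0.29 for the cell cycle, -0.90 for immediate-early genes and -0.15 for interferon-induced genes. With at least 25 in either organ they were 0.49 for ER folding, -0.92 for B cell receptor signalling, -0.25 for the cell cycle and -0.17 for interferon-induced genes. In all of these settings the medians of these 8 lists kept their sign.

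Of the 133 named genes called at 2-fold, normexp correction ended 57 calls, the local background 28 of 130, the scale without centring 6 and quantile normalization 3 (Prdm1, Pycr1 and Sec11c). The rebuilt recipe and the mean over probes ended 0. With the local background 4 genes changed sign, Chst1 to -0.93, Gzmb to -3.22, Irak2 to 1.23 and Apex1 to 3.58, and the cause was not tested. Signals near the lowest detected values carried larger spot errors, such as 0.69 for Cxcr2, against 0.11 for bright genes such as Xbp1.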

Other observations

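Genes of other functions also stood among the extremes. Of the 12 highest ratios, Wwc1, a regulator of the Hippo pathway, was at 3.19 ± 0.18 with 75.3 in bone marrow, 9.3 in spleen and 3.7 in B220+ cells, and the transcript 6430548M08Rik, with no role given here, was at 3.81 ± 0.11. Of the 12 lowest, Rcsd1, a regulator of actin capping, was at -4.47 ± 0.14 with 21.7 in bone marrow, 542 in spleen and 929 in B220+ cells, and Gimap3, a GTPase of lymphocyte survival, at -4.43 ± 0.62 with 2.8 in bone marrow, 67.9 in spleen and 111 in B220+ cells. Emb, the adhesion protein embigin, was at -4.46 ± 0.42 with 4.2 in bone marrow, 104 in spleen and 6.4 in B220+ cells, and the transcript 1810046K07Rik was at -4.78 ± 0.30 with 6.2 in bone marrow, 193 in spleen and 1.6 in B220+ cells. These last 2 were higher in spleen Venus+ cells than on either other array. S100a6, a calcium-binding protein, read 132 in spleen and 112 in B220+ cells, undetected in bone marrow, at least 48.9-fold lower in bone marrow. Usp2, a deubiquitinase, read 16.7 in bone marrow and was undetected in spleen and B220+ cells, at least 11.1-fold higher.

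Probes without a gene symbol entered no count above. Of these 6842 probes, 4140 were detected in both organs, of which 339 (8.19%) were higher and 415 lower in bone marrow on the same centring, with a median of 0.09. Of the genes with several detected probes, 111 in all, the probes of a gene spread over a median of 0.63 in log2 ratio, and 0 genes had calls in opposite directions.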
